A study of Mus musculus with 6 samples.

Results

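Ribosomal protein genes were described in single cells of 6 mouse rhabdoid tumors. The members were all genes whose symbol begins with Rpl or Rps and a digit, without pseudogene symbols that carry "-ps" and without the kinases that begin with Rps6k. This gave 83 members of 16557 genes, of which 33 carry names of the small (40S) subunit and 50 of the large (60S) subunit. Their symbols chose them and no measured value did. The list holds 80 genes in every table, and Rpl3l, Rpl10l and Rpl39l were not listed for every tumor and counted as 0 there. Of the members, 73 are core ribosomal proteins and 10 are extra copies or genes that are no core subunit (Rpl3l, Rpl6l, Rpl7l1, Rpl10l, Rpl22l1, Rpl36al, Rpl39l, Rps19bp1, Rps27l and Rps27rt). The core genes gave 98.2% of the members' UMIs.

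The tumors arose in mice with loss of Smarcb1, a subunit of the SWI/SNF chromatin remodeler, and fell in the groups MYC spinal (3 tumors) and extracranial (eRT, 3 tumors). All mice were C57BL/6 with floxed Smarcb1 alleles (Smarcb1 fl/fl), and dams received 50 mg/kg tamoxifen at 6.5 days post coitum to activate the Cre. The mice are called S1 to S3 (MYC spinal replicates 1 to 3) and E1 to E3 (eRT replicates 1 to 3). Mice S1 (19 weeks), S2 (26 weeks) and S3 (17 weeks) were all Rosa26-creERT2, a broadly active driver. The age of mouse E1 is that of its label, and the study's own list of mice differs on it. The eRT came from mouse E1 (gland, 17 weeks, Rosa26-creERT2), mouse E2 (jaw, 29 weeks) and mouse E3 (shoulder, 22 weeks), the latter pair with Sox2-creERT2, which is active in early embryonic and stem cells. Location and Cre driver therefore cannot be told apart in full, and each tumor is 1 animal and 1 library. No library of normal tissue was used here, so immune-like cells of the same tumor were the reference.

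A ribosome is built from a small and a large subunit, each with its own set of ribosomal proteins, and the mRNAs for these proteins are among the most abundant of a growing cell. Many of these mRNAs begin with a run of pyrimidines, the 5′ terminal oligopyrimidine (TOP) motif, through which the mTOR pathway adjusts their translation, and MYC is known as an activator of ribosome production. Some members have a second gene copy whose protein can take the same place in the ribosome (Rps27 and Rps27l, Rpl22 and Rpl22l1, Rpl36a and Rpl36al).

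The starts of a few members are shown because the comparisons below turn on these genes. Each window (GRCm38.p6, starts and sequence from RefSeq) runs from 12 bases before the annotated start to 18 bases from it, 5′ to 3′, and capitals mark the first C that is followed by at least 4 further C or T and begins within 5 bases of the start, on the gene's strand.
Rps27 (chr3:90213631-90213660, minus strand): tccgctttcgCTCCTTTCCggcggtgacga
Rps27rt (chr9:114982722-114982751, minus strand): acttatcccttgCTTTCCggcggtgacgac
Rps27l (chr9:66946074-66946103, plus strand): ctcctccccgccgCCTCTatcccggaagtt
Rpl12 (chr2:32961700-32961729, plus strand): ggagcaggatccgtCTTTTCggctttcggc
Rpl13a (chr7:45128728-45128757, minus strand): accctgcgacaagaCCTCCTCCTTTCCCag
Rps15a (chr7:118116130-118116159, minus strand): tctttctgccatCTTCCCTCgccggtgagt

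Such a run was found in 29 of the 63 members with an entry (46.0%) and in 21.2% of the 27025 genes with an entry. A C followed by at least 4 further C or T stood exactly at the annotated start in 13 members (20.6%) and in 3.01% of all genes. This count includes starts that lie inside a run begun further upstream. Mitochondrial ribosomal proteins, which build the separate ribosome of mitochondria, had the run in 17 of 69 genes and such a C exactly at the start in 0. The windows of Rps27 and Rps27rt shared an unbroken run of 17 letters. Rps27 has up to 5 exons, whereas Rps27rt, on chromosome 9, has 1 exon. A match describes letters only, and a missing one says nothing about a regulator.

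The 6 tables held 22681 cells, of which 22163 were kept, with 3841706 to 26184224 UMIs per tumor. Cells were clustered without any ribosomal or translation gene and named from marker lists. This gave 15811 immune-like cells, 2730 tumor cells and 3545 cells with no name. The groups were clustered apart, so different clusters carry the same name in each. The largest macrophage-like cluster was led by Ccl12, Apoe and Tmem119 in MYC spinal (1627 cells). In eRT (1147 cells) it was led by Fcrls, Cbr2, Igf1 and Mrc1. Macrophage-like cells need not be of the same type in both groups. A macrophage-like cluster of 259 MYC spinal cells (249 from mouse S3) was led by Cd207 and Dnase1l3, which are known from dendritic cells, with mitotic genes. Its macrophage markers summed to 10475 CPM in mouse S3, against 14640 in the other macrophage-like cells there. Another macrophage-like cluster, of 344 eRT cells, was led by replication genes such as Mcm3. Tumor cells were clusters with hardly any Smarcb1, so its level is no finding. Smarcb1 reached 0 to 6.41 CPM (UMIs scaled to a common total per tumor and kind of cell) in tumor cells and 20.7 to 58.3 in immune-like cells. Mouse S2 gave only 15 tumor cells, with 0 Smarcb1 UMIs, which allows up to 67.2 CPM. Those cells lay in a cluster of 1545 cells, mostly from mouse S3. The tumor cells also include a subcluster of 189 cells, 188 of them from mouse S3, with 4 macrophage markers among its 10 leading genes, and no doublets were removed. All 10 macrophage markers summed to 2317 CPM in those 188 cells, with Adgre1 at 0, to 462 in the other tumor cells of mouse S3 and to 13675 in its macrophage-like cells. Smarcb1 was at 13.1, 2.25 and 60.4 CPM in the same order. The members' share was 23.5% in the 188 cells and 23.1% in the other tumor cells. Without that subcluster the tumor comparison called the same numbers of members (1 higher and 2 lower), and without the Cd207 cluster 46 members were called in T-like, 31 in NK-like, 9 in B-like and 36 in neutrophil-like cells, settings chosen after the data were seen.

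The members made up 13.9 to 33.6% of all UMIs in tumor cells, which was within the wide range of the immune-like kinds. The share was 13.9% in mouse S1, 26.5% in S2 and 23.2% in S3 (MYC spinal), and 17.1% in E1, 33.6% in E2 and 24.8% in E3 (eRT). In immune-like cells of the same mice it was 19.6%, 24.1%, 21.9%, 17.4%, 20.1% and 18.8%. Tumor cells were higher in 4 of 6 tumors, and the difference averaged 2.88 ± 6.46 percentage points (SD, n = 6), so it was smaller than its spread. The makeup of the immune-like cells differed: 856 of 1332 were T-like in mouse S1 and 2531 of 3035 macrophage-like in E3. Against macrophage-like cells alone, tumor cells were higher in 5 of 6 tumors, by 4.94 ± 5.89 points. The sign turned with the reference in mouse S1 (-5.67 to 4.82 points), S2 (2.34 to -2.01) and E1 (-0.25 to 2.70). The exact binomial 95% intervals of all shares were at most 1.03 points wide, which covers counting error only. A share is relative, and more ribosomal protein UMIs cannot be told apart from fewer UMIs of other genes.

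T-, NK- and B-like cells had higher shares than macrophage-like cells in each tumor that held both kinds. Neutrophil-like cells had lower ones in the 3 tumors that held them. Plasma-like cells, found in mouse S2 alone, held 24.8%, below the 28.5% of its macrophage-like cells. T-like cells held 23.1% (S1), 39.0% (S2), 29.3% (S3), 24.5% (E1), 30.9% (E2) and 27.0% (E3). Macrophage-like cells held 9.13%, 28.5%, 20.8%, 14.4%, 18.1% and 18.5% in the same order. In mouse S2 their macrophage markers summed to 3644 CPM, against 13675 to 98512 in the other mice, at a median of 525.5 UMIs per cell. Their share there was near the 28.7% of its monocyte-like cells. That name is thus less sure in mouse S2, where these cells are the reference in the comparisons below. The kinds overlap across mice, but within each mouse T-like cells lay above macrophage-like cells, by 10.7 ± 2.29 points (SD, n = 6). NK-like cells did the same in 6 of 6 tumors, by 11.3 ± 1.94 points. B-like cells, present in 2 tumors, held 26.3% (S1) and 38.0% (S2), or 13.4 ± 5.38 points more than macrophage-like cells (n = 2). Neutrophil-like cells held 6.02% (E2), 9.23% (S2) and 13.2% (S3), which was 12.96 ± 5.89 points (SD, n = 3) less than macrophage-like cells. In MYC spinal they joined a cluster led by Retnlg and Mmp8 (947 cells) with 1 led by Orm1 and Fcnb (579 cells). The latter had 5 mitotic markers raised. In eRT they came from a cluster of 208 cells led by S100a8, so these values can mix stages. The bone-resorbing osteoclast-like cells were above macrophage-like cells in 3 of 3 tumors, by 3.60 ± 2.28 points. Granulocyte progenitor-like cells, which precede neutrophils, held 37.9% (S2) and 32.9% (S3), against 9.23% and 13.2% in the neutrophil-like cells of these mice. Within mouse S2 their share was below that of T-like (39.0%), NK-like (38.1%) and B-like cells (38.0%). Within mouse S3 it was above that of T-like (29.3%) and NK-like cells (29.4%). Dendritic-like (5 of 6 tumors higher, 2.20 ± 2.56 points) and monocyte-like cells (3 of 6 higher, 1.05 ± 3.58 points) did not differ from macrophage-like cells beyond the spread.

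The order of kinds within a mouse was similar, with the place of tumor cells as the main exception. Among the 7 or 8 kinds ranked, granulocyte progenitor-like cells left out, T-, NK- or B-like cells came first in 5 tumors and tumor cells in mouse E2. From the top, tumor cells were at rank 6 of 7 in mouse S1, 7 of 8 in S2, 5 of 8 in S3, 4 of 7 in E1 and 3 of 7 in E3. The order of T-like, macrophage-like and neutrophil-like cells was the same at equal depth. With every cell thinned to 1000 UMIs and shallower cells left out, the median share was 23.1 to 35.6% in T-like and 8.55 to 27.6% in macrophage-like cells, and higher in T-like cells of each mouse. Neutrophil-like cells had thinned medians of 4% (E2), 7.4% (S2) and 12.4% (S3). In mouse S2, where cells were shallow, only 22 of 186 T-like and 24 of 256 macrophage-like cells reached that depth, against 305 of 490 and 224 of 261 in mouse E2. Mitochondrial UMIs made up 1.37 to 3.04% in T-like, 1.10 to 2.13% in macrophage-like and 0.385 to 1.47% in neutrophil-like cells, and their part in the order was not tested. UMIs of the 60S genes divided by those of the 40S genes gave 0.994 to 1.31 over all of these kinds and tumors.

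**Figure D1:**
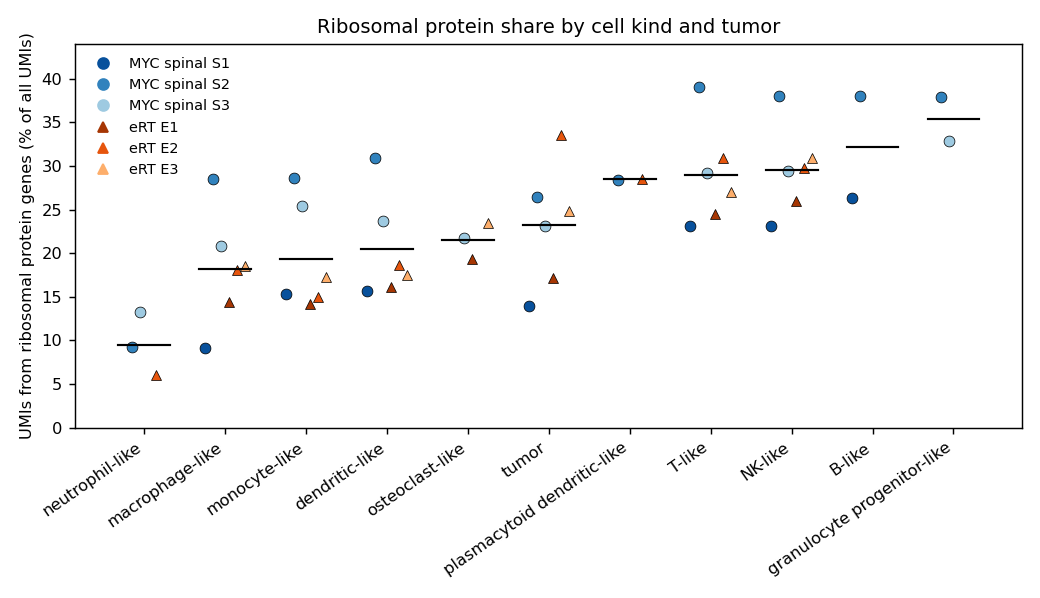
Share of UMIs from the 83 ribosomal protein genes (percent of all UMIs, linear axis) for each kind of cell, 1 point per tumor, with circles for MYC spinal, triangles for eRT and a bar at the mean. Neutrophil-like cells lie at 6.02 to 13.2% and T-like cells at 23.1 to 39.0%, while tumor cells spread from 13.9 to 33.6%.

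The high share of tumor cells in mouse E2 was carried by cells with few genes. A pair of tumor clusters had a median of fewer than 700 genes per cell, 1 in eRT (200 cells, 142 of them from mouse E2) and 1 in MYC spinal (188 cells, 180 of them from mouse S3). In those cells the members took 46.6% of UMIs in mouse E2 and 37.0% in mouse S3, but 29.98% in 10 cells of mouse E1 and 26.6% in 48 cells of mouse E3. The remaining 59 tumor cells of mouse E2 held 23.7%, close to the 24.7% of the remaining cells of mouse E3. Without these clusters the tumor cells of the 6 mice held 13.7% (S1), 26.5% (S2), 22.5% (S3), 16.1% (E1), 23.7% (E2) and 24.7% (E3). The mean difference from immune-like cells then became 0.90 ± 4.14 points (SD, n = 6, higher in 4). This setting was chosen after the values were seen. Both clusters count as tumor cells because of their low Smarcb1, so that level is no finding. It was 0 UMIs where 21.6 were expected from immune-like levels, and 0.0558 of the 17.9 expected.

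Over all tumor cells of mouse E2 the share fell with depth, while it rose in mouse E3. Its tumor cells below 1000 UMIs (21 cells) had a median share of 52.0%, those from 1000 to 2000 UMIs (74 cells) 47.8%, those from 2000 to 5000 (69 cells) 37.9% and the 37 deeper cells 27.1%. In mouse E3 the medians were 19.2%, 22.6% and 26.2% from 1000 UMIs upwards. Spearman's rho between share and UMIs per cell was -0.57 over the 201 tumor cells of mouse E2 but 0.41 over its 59 cells outside the low-gene clusters, and in mouse E3 it was 0.40 over 630 and 0.46 over 582 cells. These cells share a library within each mouse. The most extreme subcluster held 65 cells of mouse E2 with a median of 321 genes, and the members gave 57.1% of its UMIs. Thinned to 1000 UMIs, 47 of those cells had a median of 57.8%. Mitochondrial UMIs were 2.58% in the low-gene cells of mouse E2 and 1.16% in its other tumor cells, and in mouse S3 they were 2.38% and 1.70%. The part of cell quality in these shares was not tested. In mouse E3 a mitotic subcluster of 28 cells held 26.0% against 24.7% in the other tumor cells, a comparison of 1 tumor with no test.

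**Figure D2:**
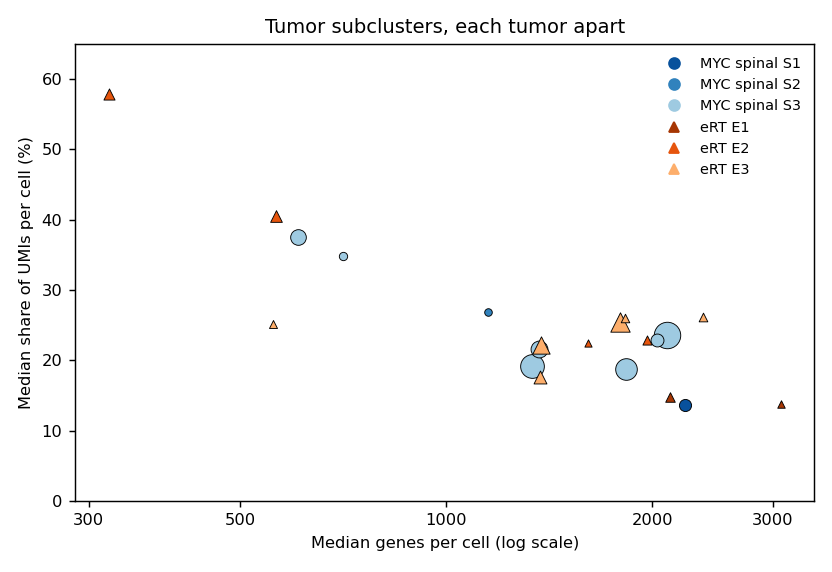
Median share of UMIs from ribosomal protein genes per cell (percent) against the median number of genes per cell (log axis) for each tumor subcluster and tumor, with area by cell number, circles for MYC spinal and triangles for eRT. The subclusters of mice E2 and S3 with the fewest genes lie highest, up to a median of 57.9% at 321 genes, whereas 19 cells of mouse E3 with a median of 558 genes lie at 25.2% and subclusters above 1000 genes between 13.6 and 26.8%.

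Per gene, few members were called between tumor cells and immune-like cells, which does not show that both are alike. On the CPM scale, 7 of 82 members went in the direction of the fit in all 6 tumors. In edgeR's quasi-likelihood test on UMIs summed per tumor and kind, with the tumor as a block, 1 of 82 members tested was called higher and 2 lower at an adjusted p of 0.05. Over all 12131 genes tested, 15.4% were called higher and 17.0% lower. The members' median log2 fold change was -0.18 beside -0.04 over all genes. By subunit, the medians were -0.22 for 33 genes of the 40S and -0.13 for 49 of the 60S. Without TMM factors (edgeR's scaling between libraries) the medians were 0.15 and 0.22 and 3 members were called higher and 2 lower, so the sign of the median turned with the scaling. The calls of Rps27l, Rpl3l and Rpl39l and the place of the members below the median of all genes were common to both scalings. Without the low-gene clusters 16 members were called, 15 of them lower, where 17.6% of all 12141 genes were, and the median was -0.34. The 15 are 18.3% of the 82 members, a share near that of all genes. Beside Rpl3l and Rpl39l these included Rps29 (-0.91 ± 0.16, SE, adjusted p = 0.0019) and Rpl10 (-0.72 ± 0.20, adjusted p = 0.0172). Without mouse E2, 6 members were called.

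Rps27l was the member called higher in tumor cells. It encodes a close relative of the small-subunit protein of Rps27 and is known as a p53 target (ENSMUSG00000036781.13, chr9:66946086-66949516, plus strand). Its level was 874 CPM in mouse S1, 1411 in S2, 1771 in S3, 1509 in E1, 1367 in E2 and 1201 in E3 in tumor cells. Immune-like cells had 318, 619, 921, 659, 373 and 561 CPM in the same order. Tumor cells were higher in 6 of 6 tumors, although the ranges touch, since 921 CPM in mouse S3 exceeds 874 in mouse S1. The log2 fold change was 0.97 ± 0.25 (SE, adjusted p = 0.0136). It was 0.91 against macrophage-like cells alone (adjusted p = 0.00799) and 0.84 without the low-gene clusters (adjusted p = 0.00618). It passed in 23 of 25 alternatives and missed in the smaller fits of 3 MYC spinal tumors (0.68, adjusted p = 0.379) and 3 eRT (1.24, adjusted p = 0.0504).

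The 2 members called lower, Rpl3l and Rpl39l, were near 0 throughout. Rpl3l, known as the muscle form of Rpl3, gave 0 to 2 UMIs in the tumor cells of each mouse and 0 to 69 in immune-like cells. Of the immune-like UMIs, 36 of 69 in mouse E1 and 34 of 47 in mouse S3 lay in osteoclast-like cells, and 14 of 17 in mouse S2 in neutrophil-like cells. Rpl39l, a copy of Rpl39 known from germ cells, gave 0 UMIs in tumor cells of 5 mice and 9 in mouse S3. In immune-like cells of mouse S3 it gave 178 UMIs, 136 of them in osteoclast-like cells. Fitted fold changes at such counts depend on the prior count and are not given as sizes.

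Several core genes with high levels in tumor cells did not pass. Among these were Rpl41 (mean 9829 CPM over 6 tumors), Rps19 (8527), Rpl37a (7252) and Rps14 (6589), with log2 fold changes from -0.29 to 0.01. Rps19, a small-subunit protein mutated in Diamond-Blackfan anemia, ranged from 4303 CPM in mouse S1 to 14867 in mouse E3 in tumor cells, and from 6168 to 9789 in immune-like cells. The members on chromosome X did not pass in edgeR either: Rpl10 had a change of -0.53, Rpl39 -0.38, Rps4x 0.10 and Rpl36a 0.21. Rpl10 passed in DESeq2 (-0.54, adjusted p = 0.0373), and without the low-gene clusters both Rpl10 and Rpl39 (-0.65, adjusted p = 0.0199) passed in edgeR. Among lists of related genes, 2 of 77 mitochondrial ribosomal proteins were called, both higher (median -0.11). Of 38 ribosome biogenesis genes edgeR called 0 (median 0.17, 4 at an unadjusted p below 0.05, and 2 called by DESeq2), and of 19 translation factors and other TOP mRNAs 0 (median 0.16, 2 at that p, and 2 by DESeq2). Of 7 ribosomal proteins outside the naming rule 0 were called (median -0.06, 0 at that p, and 1 by DESeq2), and of 17 genes of the Myc network and of mTOR signaling 1 was called higher and 1 lower (median -0.12).

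No member was called for a different change from immune-like to tumor cells between the subtypes. The interaction test called 0 of 82 members and 0% of all 12131 genes, with 0 members at an unadjusted p below 0.05 and 0 called by DESeq2. Its median was 0.71 for the members, in the direction of eRT, beside 0.09 for all genes. Without the low-gene clusters it was 0.39. In tumor cells directly, eRT against MYC spinal called 0 of 80 members and 0% of 5735 genes in edgeR (2 members at an unadjusted p below 0.05, and 0 called by DESeq2). The median of 0.57, beside 0.05 over all genes, became 0.14 without the low-gene clusters and 0.03 without mouse E2. In macrophage-like cells the same comparison called 0 of 80 members and 0% of 7752 genes (2 members at an unadjusted p below 0.05, and 0 by DESeq2), with a median of -0.16 beside 0.00411. The macrophage-like cells compared here came from clusters with different leading genes in each subtype. With 3 tumors a group, these results do not show that the subtypes are alike.

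T-like cells had higher levels of many members of both subunits than macrophage-like cells of the same tumor. Of 80 members tested 44 were called higher, where 11.2% of all 8396 genes were, and 1 lower, where 17.7% were. The members' median was 0.48 beside -0.07 over all genes, and the gap of 0.54 between both medians was 0.55 without TMM factors. Called higher were 20 of 33 members of the 40S and 24 of 47 of the 60S, and 69 of 80 members went the same way in all 6 tumors. The count of called members was 25 without mouse S1, 29 without S2 and 26 without E2. Rps27, which encodes a zinc-finger protein of the small subunit, had the largest change, 1.08 ± 0.22 (SE, adjusted p = 0.000204). Its level was 393 CPM (S1), 634 (S2), 113 (S3), 230 (E1), 597 (E2) and 164 (E3) in T-like cells, and 89.1, 334, 63.4, 61.4, 214 and 89.2 in macrophage-like cells. It was higher in each mouse, while the ranges overlap between mice.

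Rpl12, of the large subunit's stalk base, rose by 0.94 ± 0.19 (SE, adjusted p = 0.000136). Its level was 1525, 2885, 2327, 1440, 2402 and 1896 CPM in T-like cells of mice S1, S2, S3, E1, E2 and E3, and 401, 925, 1596, 761, 1022 and 954 in macrophage-like cells. Rpl13a, a large-subunit protein also known for a role in interferon-dependent translational silencing, rose by 0.88 ± 0.16 (adjusted p = 2.75e-05). Its levels did not overlap: 5270 to 6901 CPM in T-like cells and 1899 to 3720 in macrophage-like cells. Rps27rt, the single-exon copy of Rps27, rose by 0.97 ± 0.22 (adjusted p = 0.000568), from 81.1 to 1236 CPM in macrophage-like cells to 141 to 3062 in T-like cells, each mouse being higher. The 1 member called lower was Rps27l, at -0.86 ± 0.23 (adjusted p = 0.00323). Rps27 and Rps27l thus moved in opposite directions here, and on the CPM scale Rps27l was 247, 358, 940, 475, 239 and 322 in T-like cells against 373, 680, 898, 627, 492 and 550 in macrophage-like cells, lower in 5 of 6 tumors.

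NK-like cells were similar in extent. Of 80 members 31 were called higher, where 7.47% of all genes were. The median was 0.40 beside -0.17 over all genes, 65 members went the same way in all 6 tumors, and the called members were 11 of 33 for the 40S and 20 of 47 for the 60S. Rps15a, a small-subunit protein, led with 0.87 ± 0.17 (SE, adjusted p = 0.000168), at 4839, 7018, 4917, 3597, 5494 and 6531 CPM in NK-like cells of mice S1, S2, S3, E1, E2 and E3. Macrophage-like cells had 1116, 4028, 2911, 1537, 2533 and 2213 CPM, lower in each mouse. Rpl12 (0.78), Rps20 (0.73), a small-subunit protein, and Rps27 (0.72) followed. Rpl22l1, the copy of Rpl22, was among the called members at 0.53 ± 0.20 (adjusted p = 0.0490). The count of called members was 11 without mouse S1, 20 without S3, 20 without E1, 15 without E2 and 51 without E3.

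B-like cells rested on 22 cells of mouse S1 and 213 of mouse S2. Of 80 members 12 were called higher, where 2.35% of all genes were, with a median of 0.50 beside -0.38 over all genes. The largest changes were in Rps27 (1.51 ± 0.32, SE, adjusted p = 0.00249), Rps27rt (1.32), Rpl12 (1.07) and Rps20 (0.996). Rps27 was at 589 and 674 CPM in B-like cells and at 89.1 and 334 in macrophage-like cells of these mice. The count depended on the data used: it was 0 without mouse S1 or without mouse S2, where 1 tumor with B-like cells was left, 5 without S3, 6 without E2, 21 without E3 and 62 by DESeq2. All 3 lymphoid comparisons share the macrophage-like cells and came from a shared fit over all immune-like kinds of all tumors. Tumors with too few B-like cells for a sum thus also entered the SE of the B-like comparison.

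Other ribosome lists were compared with the share of all genes called higher (11.2% in T-like and 7.47% in NK-like cells). Of the 7 ribosomal proteins outside the naming rule, such as Rplp0 and Rpsa, 5 were called higher in T-like (71.4%) and 3 in NK-like cells (42.9%). Of 19 translation factors and other TOP mRNAs, 2 were called higher in T-like cells (10.5%), and 5 higher (26.3%) and 1 lower in NK-like cells. Of 34 ribosome biogenesis genes, 1 was called higher in T-like (2.94%) and 5 in NK-like cells (14.7%). In T-like cells the last 2 lists were thus near or below all genes. Mitochondrial ribosomal proteins had medians of -0.12 in T-like and -0.08 in NK-like cells, with 2 of 73 called higher and 3 lower in the former and 2 lower in the latter. In B-like cells edgeR called 0 genes higher in each of these lists. There 5 of the ribosomal proteins outside the naming rule, 2 translation factors, 2 biogenesis genes and 7 mitochondrial ribosomal proteins had an unadjusted p below 0.05, and DESeq2 called 5, 4, 1 and 0 genes of these lists higher.

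Neutrophil-like cells had lower levels of 35 of 80 members, where 9.65% of all genes were called lower, and a higher level of 1, where 11.5% were. The median was -0.55 beside -0.12 over all genes, and 76 of 80 members went the same way in all 3 tumors that hold both kinds. By subunit, 25 of 47 members of the 60S and 10 of 33 of the 40S were called lower. Rpl3, the large-subunit protein near the peptidyl transferase centre, fell by 1.14 ± 0.24 on the log2 scale (SE, adjusted p = 0.000694). Its level was 322, 408 and 1668 CPM in neutrophil-like cells of mice E2, S2 and S3 and 2083, 1561 and 3691 in macrophage-like cells. Rpl10a, a large-subunit stalk protein, fell by 1.14 (adjusted p = 0.00109), from 1633, 2467 and 2650 CPM to 322, 592 and 1328. Both genes were lower in each of the 3 mice, and the ranges of Rpl10a did not overlap. Rps2, at the mRNA entry of the small subunit, fell by 1.22 (adjusted p = 0.00103) and Rpl10, which joins the large subunit late, by 0.99 (adjusted p = 0.0178).

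The member called higher in neutrophil-like cells was Rps27, at 0.75 (adjusted p = 0.0485), and it is named because it stands alone. Its level was 305, 149 and 79.8 CPM in mice E2, S2 and S3 against 214, 334 and 63.4 in macrophage-like cells, so on the CPM scale it was higher in 2 of 3 mice. Without the Cd207 cluster among macrophage-like cells 0 members were called higher and 36 lower. Without TMM factors its change was 0.09 and 76 members were called lower, where 33.2% of all genes were, and 0 higher. The scaling shifted the median of all genes from -0.12 to -0.77 there, and the members stayed 0.43 and 0.40 below it. Other lists were also low in these cells: 16 of 34 ribosome biogenesis genes, 9 of 19 translation factors and other TOP mRNAs, 4 of 7 other ribosomal proteins and 18 of 73 mitochondrial ribosomal proteins were called lower. One mitochondrial ribosomal protein was called higher. Without mouse E2 or mouse S2 the count of called members was 8 and 9.

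Dendritic-like and monocyte-like cells were near macrophage-like cells. In dendritic-like cells edgeR called 0 of 80 members, where 9.25% of all genes were called (2 members at an unadjusted p below 0.05, and 2 called by DESeq2), with a median of 0.08 beside -0.11. In monocyte-like cells it called 0 of 80, where 1.94% of all genes were called (1 member at an unadjusted p below 0.05, and 0 by DESeq2), with a median of 0.09 beside 0.02. The members' changes lay between -0.29 and 0.51 in dendritic-like and between -0.27 and 0.45 in monocyte-like cells.

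**Figure D3:**
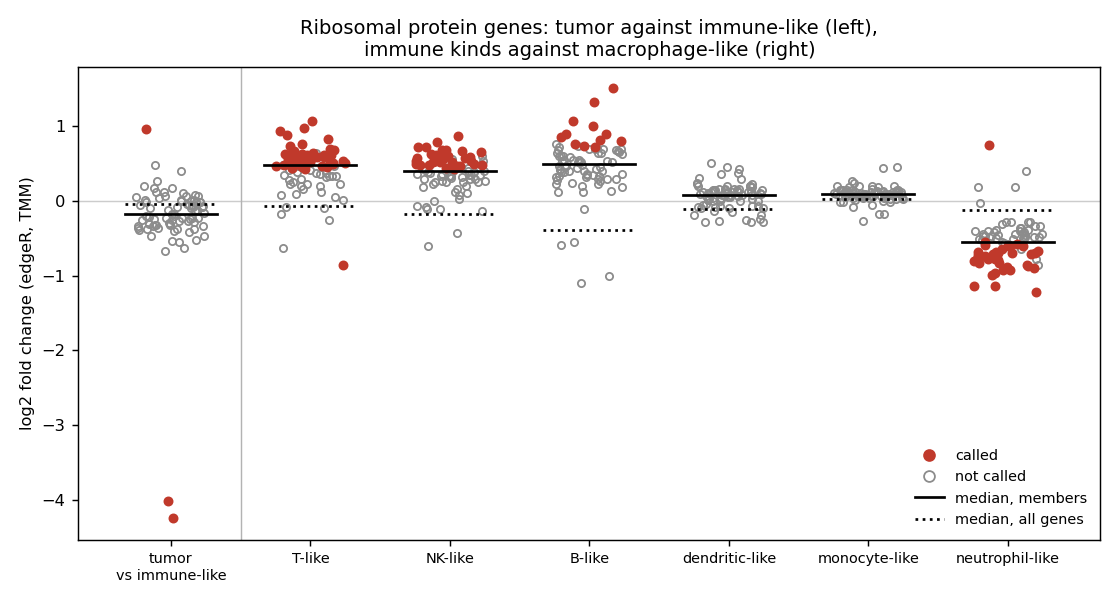
Log2 fold change (edgeR, TMM factors) of each ribosomal protein gene, 1 point per gene, in tumor cells against immune-like cells (left of the line) and in 6 immune-like kinds against macrophage-like cells (right), with filled points called at an adjusted p of 0.05. Solid bars are medians of the members and dotted bars medians of all genes: 44 members were called higher in T-like and 35 lower in neutrophil-like cells.

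Copies and their parent genes were compared as a share of the UMIs of both, which does not depend on scaling. Rps27l gave 81.3% (S1), 87.5% (S2), 95.4% (S3), 92.7% (E1), 79.2% (E2) and 89.0% (E3) of the UMIs of Rps27l and Rps27 in tumor cells. In immune-like cells it gave 50.1%, 68.2%, 92.5%, 89.2%, 50.7% and 85.7%. It was higher in tumor cells of all 6, with means of 87.5 ± 6.29% and 72.7 ± 19.2% (SD, n = 6), and the 2 ranges overlap. The gap was widest in mice S1 and E2 and was 6.17 ± 7.68 points against macrophage-like cells alone.

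Rpl36al gave 24.5 ± 2.70% of the UMIs of Rpl36al and Rpl36a in tumor cells and 35.3 ± 3.35% in immune-like cells. The tumor values were 28.0%, 24.4%, 23.3%, 27.4%, 21.2% and 22.8% in mice S1, S2, S3, E1, E2 and E3, and the immune-like values were 33.6%, 31.3%, 39.7%, 39.1%, 34.4% and 33.9%. These ranges did not overlap, and those against macrophage-like cells (33.3 to 41.8%) did not either. Rpl36al lies on chromosome 12 and Rpl36a lies on X, and both encode nearly the same large-subunit protein. Rpl22l1 gave 51.3 ± 7.92% of the pair with Rpl22 in tumor cells and 44.99 ± 5.88% in immune-like cells, higher in 6 of 6 tumors but only from 48.6 to 48.8% in mouse E3. Against macrophage-like cells it was higher in 5 of 6 tumors, with 49.7% in the macrophage-like cells of mouse E3.

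For these 3 pairs an exact two-sided sign-flip permutation test over 6 tumors gave p = 0.03125, the smallest it can give, and 0.0625 after Benjamini-Hochberg adjustment over 6 pairs, which misses 0.05. Rps27rt (p = 0.6875), Rpl7l1 (p = 0.625) and Rpl6l (p = 0.3125) gave larger p-values in the same exact permutation test, which over 6 tumors does not show that these pairs are alike. Genes of these pairs share sequence with other genes to differing degrees. Of the 50-base windows in the last 400 bases of the transcripts, 15.6% were shared with another gene for Rps27l and 34.1% for Rpl22l1. For Rps27, the parent of Rps27l, 32.2% were shared, with 9 other genes. The values were 76.5% for Rpl36al and 37.8% for Rpl36a. The parent gene was not among the genes that shared windows with Rps27l, Rpl36al or Rpl22l1. How reads of shared windows were assigned was not tested. Over all cells Rps27 had 8622 UMIs and Rps27l had 61263. Since reads of Rps27 can be lost to other genes, the percentages of this pair describe counted UMIs. They do not show that Rps27l mRNA outnumbers Rps27 mRNA.

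**Figure D4:**
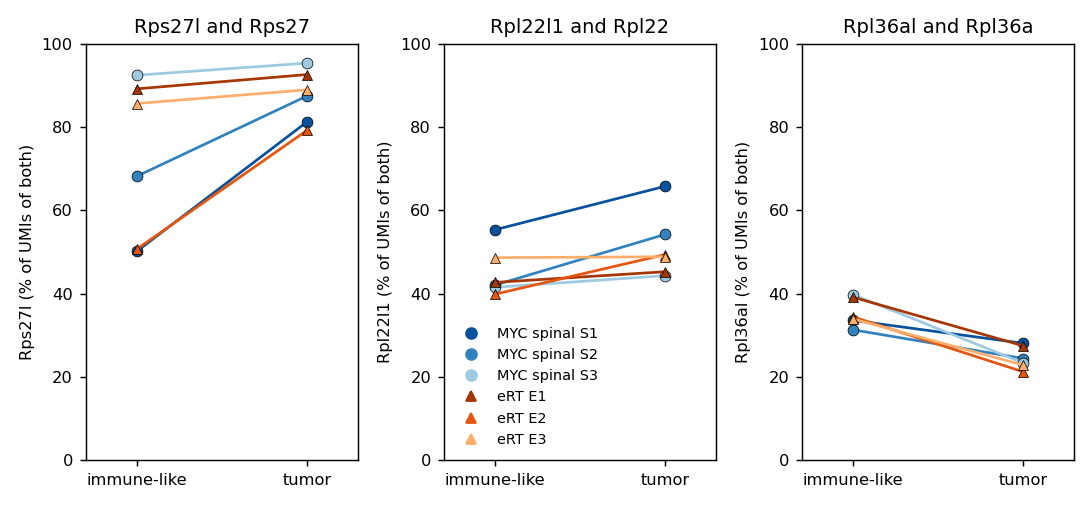
UMIs of Rps27l, Rpl22l1 and Rpl36al as a percentage of the UMIs of the copy and its parent gene, in immune-like and tumor cells joined by a line for each tumor, with circles for MYC spinal and triangles for eRT. Rps27l and Rpl22l1 are higher in tumor cells of all 6 tumors, and Rpl36al is lower in all 6, at 21.2 to 28.0% against 31.3 to 39.7%.

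Single members differed widely between libraries. In macrophage-like cells the highest tumor exceeded the lowest by a median of 3.34-fold over 80 members, and by over 8-fold in 11 members. The share of all members together also ranged from 9.13% (S1) to 28.5% (S2) in these cells. The ranges of single members hold this shift of the whole set and were not corrected for it. Rps2 was at 22.4 CPM in mouse S3 and at 577, 1529, 1472, 1730 and 531 in mice S1, S2, E1, E2 and E3, a 77.1-fold range. In tumor cells Rps2 was 27.4 CPM in mouse S3 and 796 to 3563 in the others, and in T-like cells 52.4 and 755 to 2684. The low value thus stood in all 3 kinds of that library. Rpl21 (36.3-fold), Rpl23a (16.8-fold), Rpl27 (16.5-fold), Rps12 (16.3-fold), Rps27rt (15.2-fold), Rps28 (14.4-fold), Rpl10 (9.60-fold), Rps21 (8.74-fold), Rps29 (8.36-fold) and Rpl38 (8.02-fold) followed. The lowest values of Rps12 and Rpl27 rest on 2 and 9 UMIs.

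Sequence shared with other genes was common among the members. The median member shared 29.5% of its 50-base windows with another annotated gene, and 18 members shared over 50% of them, among them Rps27rt (91.1%), Rpl6l (86.9%), Rpl36 (81.1%) and Rps2 (56.3%). Of the 11 members with over 8-fold ranges, 3 shared over 50%. Counts of such genes are uncertain, since reads that match several genes can be dropped or split. Comparisons within a tumor set each library against itself, while those between eRT and MYC spinal do not, and the part of read assignment in the ranges was not tested.

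**Figure D5:**
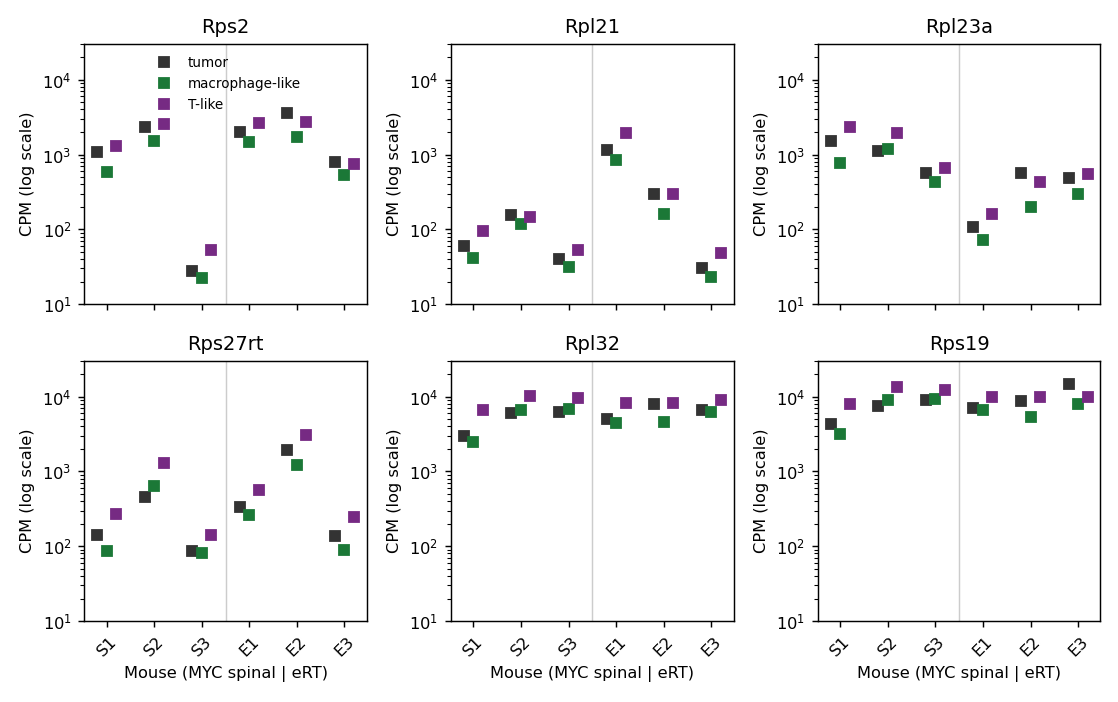
Levels (CPM, log axis) of Rps2, Rpl21, Rpl23a, Rps27rt, Rpl32 and Rps19 in tumor, macrophage-like and T-like cells of each mouse, with MYC spinal left of the line and eRT right. Rps2 is at 22.4 to 52.4 CPM in all 3 kinds of mouse S3 and at 531 CPM or more in the other mice, whereas Rps19 stays between 3128 and 14867 CPM.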

How the data were processed

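Single-cell RNA-sequencing was done on 6 fresh tumors, dissociated with Accutase, sorted for living cells and captured with 10x 3′ chemistry. The authors made the deposited UMI counts per gene and cell with Cell Ranger 2.0.2 (per the labels' processing notes, mm10), and kept cells with at least 50 genes and genes found in at least 3 cells. The deposited tables hold numbered cells without barcodes, and 0 cell profiles were identical in more than 1 tumor.

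Cells entered with 200 genes or more and a mitochondrial share of UMIs up to 25%. Each subtype was clustered with Seurat 5.3.0 (2000 variable genes, 30 dimensions, resolution 0.8) without 266 ribosome and translation genes. Kinds needed 3 markers. Tumor clusters had under 0.25 of the Smarcb1 UMIs expected (at least 10) from immune-like cells of the same mouse. A cluster with an immune name and a marker of that name among its 10 leading genes was never taken as tumor. Scrublet marked 0.0948% of cells and so had not worked, and no doublets were removed beyond the authors' sort.

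UMIs were summed per tumor and kind (at least 10 cells). The edgeR 4.0.16 quasi-likelihood test (TMM, filterByExpr, Benjamini-Hochberg over all genes at 0.05) had the tumor as a block within tumors and no block between subtypes. Checks on simulated counts used the same test for some of the comparisons. The interaction and the NK-, dendritic- and monocyte-like comparisons were not among these. Immune-like kinds were fitted together over all tumors, and each was read against macrophage-like cells. Tumors that lacked a kind, and the other kinds, therefore also entered the SE of that kind. CPM carry no TMM factors. Levels were not set against each other per length, because 3′ tags do not scale with length. Intervals are exact binomial or Poisson and cover counting error only. P-values between subtypes measure the spread between 3 mice a group. Gene positions are GENCODE vM21, matched for all 83 symbols (Rpl6l is annotated there as a processed pseudogene), and starts are RefSeq.

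Named were the extra copies, the 5 most abundant members in tumor cells, the members on chromosome X and, per comparison and direction, the 4 largest called changes whose mean log2 CPM reached 5 and that went the same way in every tumor. Some of these are not reported here. The members and lists were chosen with earlier results of these data known. Alternatives included DESeq2 1.42.0, other scalings, filters, resolutions, leaving out each tumor, and fits without the block. The effects are given in the closing section. All 6 tables and all cell columns were used.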

Additional observations from a re-analysis of the deposited data

Results flagged for a closer look

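In Rps27rt the change from immune-like to tumor cells went up in all 3 eRT and down in all 3 MYC spinal tumors on the CPM scale. The levels were 1931 CPM in tumor and 1772 in immune-like cells of mouse E2, 137 and 98.8 in mouse E3, and 333.3 and 332.0 in mouse E1. They were 139 and 211 in mouse S1, 448 and 484 in mouse S2, and 86.2 and 86.7 in mouse S3, so the steps in mice E1 and S3 were small. The fitted difference between subtypes was 0.744 ± 0.50 on the log2 scale (SE) and did not pass the edgeR interaction test (adjusted p = 1, unadjusted p = 0.166).

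Symbols with "-ps", which the naming rule leaves out, carried UMIs in every tumor. For every 100 UMIs of the members there were 0.921 in mouse S1, 1.63 in S2, 0.487 in S3, 2.06 in E1, 3.55 in E2 and 0.392 in E3. They are shown because they lie outside the genes that the comparisons use. For 3 members the "-ps" symbols exceeded the gene itself over all cells: Rps12 had 1638 UMIs and its "-ps" symbol 23999, Rpl27 had 2215 and 10077, and Rpl10 had 8020 and 20522.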

How the results depend on the processing

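No call of a named member changed sign under any alternative run. Over 177 pairs of named member and comparison, 2624 refits kept sign and call, 179 changed sign where neither value passed, 131 lost the call and 86 gained it. Of the counts of called members and the share differences, 173 stayed within 1.5 times or 1 SD and 45 moved, all of them counts. Without TMM factors the median of all genes became 0.20 in T-like, 0.13 in NK-like, -0.14 in B-like and -0.77 in neutrophil-like cells, 0.22 in tumor against immune-like cells and -0.27 in eRT against MYC spinal tumor cells. The members kept their side of it in each.

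Without the replicate block (tumors not paired), the counts fell to 1 in T-like, 0 in NK-like, 0 in B-like, 1 in neutrophil-like and 1 in tumor cells. Without TMM factors they were 69, 69, 40, 76 and 5. DESeq2 called 65 members in NK-like, 62 in B-like, 2 in dendritic-like and 8 in tumor cells. Every gene with at least 1 UMI in the fit gave 17 in T-like, 6 in NK-like and 2 in B-like cells. Stricter cell filters (500 genes or more, mitochondrial share up to 10%) gave 1 in B-like, 6 in neutrophil-like and 5 in tumor cells. Resolution 0.4 gave 16 in NK-like, 4 in B-like and 2 in dendritic-like cells, resolution 1.6 gave 1 and scaling by genes that are not members gave 4 in B-like cells. In tumor cells, macrophage-like cells as the comparison gave 1, MYC spinal tumors alone 0, eRT alone 1 and leaving out the low-gene clusters 16 (the last 3 chosen after the data were seen). Leaving out a tumor gave 25 to 53 in T-like, 11 to 51 in NK-like, 0 to 21 in B-like, 8 to 44 in neutrophil-like and 2 to 6 in tumor cells. The cause was not tested, except that smaller fits hold fewer tumors.

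The comparison of mitotic with other tumor cells could not be fitted, since mouse E3 alone had at least 10 mitotic cells. Tumor cells were few (15 in mouse S2), and each subtype had 3 tumors.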

Other observations

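Within tumor cells the spread from cell to cell was wide. In mouse E2 the members' share ran from 13.6% at the 5th percentile of tumor cells to 65.7% at the 95th, and without the low-gene clusters from 11.7 to 34.1%. In mouse S3 it ran from 12.1 to 38.1%, and in mouse S1 from 9.70 to 18.7%. In neutrophil-like cells it ran from 2.11 to 16.5% in mouse E2 and from 2.85 to 21.7% in mouse S2.

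Cells that no marker list named held 37.7% in mouse S2 (1001 cells), 25.8% in S3 (1622 cells), 24.6% in E2 (75 cells), 18.4% in E1 (533 cells), 17.6% in E3 (283 cells) and 16.2% in S1 (31 cells). In mouse S2 this was close to the 37.9% of granulocyte progenitor-like cells. Kinds found in a single tumor or in 2 tumors were plasmacytoid dendritic-like cells (28.4% in mouse S2 and 28.6% in E2), mast or basophil-like cells (30.1% in S2), plasma-like cells (24.8% in S2) and fibroblast-like cells (15.0% in E3). The eRT cluster named plasmacytoid dendritic-like (39 cells) was also led by Ms4a1 and Cd79a, as were B-like cells of MYC spinal. It shared Jchain and Mzb1 with plasma-like cells, so its name is less sure.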
